A study of Mus musculus with 10 samples.

Results

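The genes of the actomyosin apparatus and of the contractile program driven by serum response factor (SRF) were followed in mouse embryonic fibroblasts, primary connective tissue cells grown from the embryo. The set holds 37 genes named in advance, and all 37 were in the table of 52550 genes. They are a list of gene names, and no measured value enters the rule. The cells came from C57BL/6 embryos at day 14 and were at passage 3, with 5 libraries labelled male and 5 labelled female. No group was treated or carried an engineered allele. Nothing in the labels tells whether each library stands for an embryo or culture of its own. The p-values therefore speak of the spread among these libraries alone, and that spread may be technical. RNA from all cells of a dish was pooled, so fewer cells of a type and less RNA per cell cannot be told apart.

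Fibroblasts pull on their surroundings with actin filaments that slide over bundles of nonmuscle myosin II. The small GTPase RhoA starts this. It activates the kinases ROCK1 and ROCK2, which raise phosphorylation of the myosin regulatory light chains, and it promotes actin polymerization. Polymerization frees the coactivators MRTF-A and MRTF-B from monomeric actin, and they enter the nucleus and act with SRF. SRF binds the CArG box, a short A and T stretch between CC and GG, in the control regions of many actin and actin-binding genes. Fibroblasts that build smooth muscle alpha-actin (Acta2) into their stress fibres are called myofibroblasts, and Acta2 is the usual marker of that state. Myocardin (Myocd) is a further SRF coactivator, best known from smooth and cardiac muscle.

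CArG boxes lay upstream of start sites of some of these genes. A few of these stretches are shown because the program is named after the factor that reads them. RefSeq start sites on GRCm38.p6, the build called mm10 in the labels, were at hand for 30 of the 37 genes, and the 250 bases before each start were searched. The other 7 are Tagln, Myh11, Actg2, Actb, Pxn, Myocd and Rock1. A box of 10 bases with 6 central positions of A or T, which reads the same way on both strands, was found for 6 of the 30 genes (20%), against 1.62% of 27025 genes. The 6 were Srf, Vcl, Cnn2, Myl9, Actg1 and Myl6. For Myl6 the box lay before its second start site, inside the gene, and the window of its first start site had none. With 1 mismatch allowed in the centre, 10 of the 30 (33.3%) had a box, against 9.78% of all genes, and the 4 added were Acta2, Myl12a, Tpm3 and Flnc. A match describes the letters of this window and is not shown here to be a bound site. In the stretches below, each read 5′ to 3′ on the strand of its gene, capitals mark boxes with at most 1 mismatch. Parts that the annotation places inside the gene were left out, and for Acta2, where the GENCODE M21 model begins further upstream than the one in the deposited table, 30 bases around each box are given.
Srf, chr17:46556176-46556412, minus strand, SRF itself: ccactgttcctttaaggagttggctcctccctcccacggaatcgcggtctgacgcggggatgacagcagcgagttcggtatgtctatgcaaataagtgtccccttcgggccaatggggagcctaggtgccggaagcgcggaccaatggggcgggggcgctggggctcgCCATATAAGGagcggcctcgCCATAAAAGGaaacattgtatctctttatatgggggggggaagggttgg
Actg1, chr11:120348543-120348745, minus strand, cytoplasmic gamma-actin: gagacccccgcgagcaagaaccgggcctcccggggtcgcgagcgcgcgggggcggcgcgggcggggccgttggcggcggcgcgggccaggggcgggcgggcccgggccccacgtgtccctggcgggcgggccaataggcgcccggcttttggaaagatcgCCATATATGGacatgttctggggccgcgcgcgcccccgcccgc
Vcl, chr14:20929148-20929397, plus strand, vinculin: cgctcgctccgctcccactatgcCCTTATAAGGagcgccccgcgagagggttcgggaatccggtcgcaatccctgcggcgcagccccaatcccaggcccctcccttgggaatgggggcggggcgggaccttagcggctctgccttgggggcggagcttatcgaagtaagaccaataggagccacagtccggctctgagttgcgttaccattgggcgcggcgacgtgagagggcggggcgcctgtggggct
Cnn2, chr10:79988350-79988583, plus strand, calponin 2: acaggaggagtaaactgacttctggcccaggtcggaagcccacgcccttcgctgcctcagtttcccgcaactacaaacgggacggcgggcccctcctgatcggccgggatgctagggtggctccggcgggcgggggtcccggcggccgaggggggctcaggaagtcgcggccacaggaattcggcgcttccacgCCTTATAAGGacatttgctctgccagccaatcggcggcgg
Myl9, chr2:156775214-156775419, plus strand, a myosin regulatory light chain: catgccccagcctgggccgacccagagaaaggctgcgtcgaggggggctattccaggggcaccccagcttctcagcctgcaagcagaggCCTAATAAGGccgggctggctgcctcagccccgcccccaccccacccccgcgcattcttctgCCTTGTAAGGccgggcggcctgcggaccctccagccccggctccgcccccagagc
Acta2, chr19:34255438-34255467, minus strand, smooth muscle alpha-actin, the box farther from the start: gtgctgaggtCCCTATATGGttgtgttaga
Acta2, chr19:34255388-34255417, minus strand, the box nearer to the start: cgtctttgctCCTTGTTTGGgaagcgagtg

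Levels are exon reads that the deposited table counts as unique, divided by exon length and by library size with TMM scaling (RPKM, reads per kilobase of exon and unit of depth). The 10 libraries held between 22588200 and 32744611 unique exon reads, and the 37 genes together took 4.50% to 5.41% of them. Of 13615 genes with enough reads to test, 12 contractile genes were among the 100 with the highest level per kilobase. In all, 24 of the 37 had a mean above 100 RPKM, and 3 had one below 10. All 10 fibroblast markers were above 1 CPM, led by Fn1, the extracellular matrix protein fibronectin, at a mean of 13380 CPM. Endothelial Pecam1, epithelial Epcam and Cdh1 and the myogenic regulators Myod1, Myf5 and Myog were below 1 CPM. So was Casq2 of the smooth muscle list, though no listed marker with values was at 0 reads. Other markers of those and further lists were present: the most abundant were Cspg4 of the pericyte list (521 CPM), Des of the muscle lists (120 CPM), Lyz2 of the macrophage list (52.3 CPM), endothelial Kdr (31.7 CPM), epithelial Krt18 (11.8 CPM) and Tnnt2 of the cardiac list (2.72 CPM). All 5 macrophage markers with values (Ptprc, Adgre1, Cd68, Csf1r and Lyz2) averaged above 1 CPM. Their sum was 53.9 to 85.5 CPM in male and 43.3 to 118 CPM in female libraries. No value was taken for Itgam, the other macrophage marker listed. The 8 pericyte markers summed to 997 to 1182 CPM in males and 1070 to 1194 CPM in females.

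**Figure D1:**
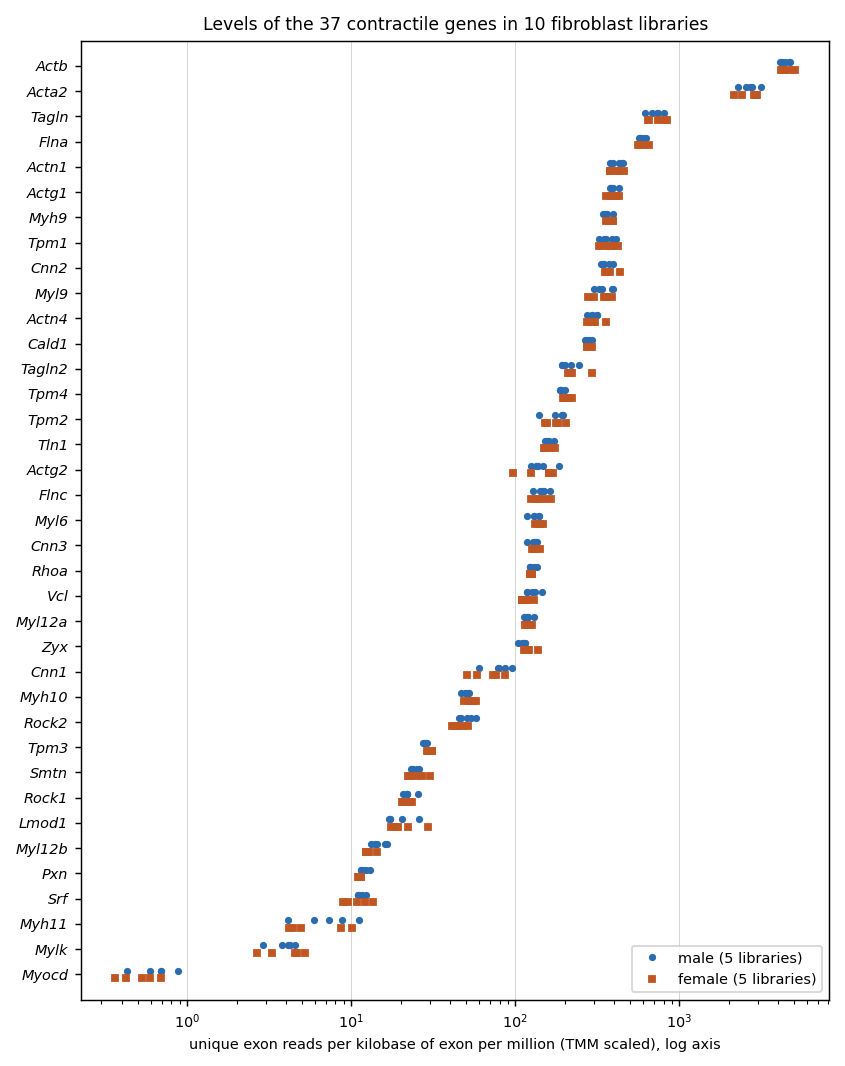
Level of each of the 37 genes in each library, in unique exon reads per kilobase of exon and unit of depth (RPKM, log axis). Blue circles are the 5 male libraries and orange squares the 5 female libraries. Actb and Acta2 stand above all other genes of the set, Myocd lies below 1, and in nearly every row the points of both sexes lie over each other.

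Both cytoplasmic actins and both smooth muscle actins were present together. Actb, cytoplasmic beta-actin, was the highest of the set at 4433 RPKM ± 268 in male and 4509 RPKM ± 373 in female libraries (SD, n = 5). Acta2, at chr19:34241090-34255336, was next and ranked 5 among all tested genes. Its level was 2285, 2537, 2785, 3149 and 2673 RPKM in male libraries 1 to 5 and 2393, 2157, 2830, 2960 and 2921 RPKM in female libraries 1 to 5. Each sex thus had libraries at both ends, and the highest library stood 1.46-fold above the lowest. Actg2, the smooth muscle gamma-actin, was far lower, at 125, 137, 147, 185 and 133 RPKM in males and 125, 97.1, 160, 170 and 159 RPKM in females. Here too the sexes overlapped, and the highest library, male 4, and the lowest, female 2, were the same ones as for Acta2. Among the 4 actins, Acta2 took 34.7% of the summed level per kilobase (31.8% to 37.5% across libraries) and Actb 58.3%. The share of Actg1, cytoplasmic gamma-actin, depended on how reads were counted: 5.16% from unique reads and 21.6% from total reads, since only 19.0% of its exon reads were unique. With total reads the share of Acta2 was 27.7%, so Acta2 stayed the second actin under both counts.

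Nonmuscle myosin made up nearly all of the heavy chain. Myh9, the heavy chain of nonmuscle myosin IIA, took 86.3% of the summed level of 3 heavy chain genes. Myh10, that of nonmuscle myosin IIB, took 12.0% and Myh11, the smooth muscle heavy chain, 1.63%. Myh11 was also the most uneven gene of the set. It stood at 5.90, 7.30, 11.2, 8.80 and 4.14 RPKM in males and at 4.93, 4.40, 10.1, 8.65 and 4.17 RPKM in females. The coefficient of variation over the 10 libraries was 37.7%, and male 3 was 2.71-fold above male 5. Mylk, the kinase that phosphorylates the regulatory light chains of smooth muscle and nonmuscle myosin, was among the lowest genes of the set. Its levels were 2.90, 3.79, 4.12, 4.55 and 4.25 RPKM in males and 3.29, 2.68, 4.56, 5.25 and 4.64 RPKM in females, with female 2 and male 1 the lowest. Among the light chains, the regulatory chain Myl9 led with 55.7% of the family from unique reads, and the essential chain Myl6 took 22.3%. Myl12a and Myl12b, a neighbouring pair of nonmuscle regulatory light chains, took 19.7% and 2.27%. Many reads of this pair were not unique: the unique share was 51.7% for Myl12a and 52.9% for Myl12b, and their split is therefore uncertain. From total reads Myl9 had 41.5% of the family, Myl12a 28.4% and Myl12b 3.19%. Myl12a was thus the higher of the pair under both counts.

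Tropomyosins wrap along actin filaments and set which proteins reach them. Their order rested on the reads counted. With unique reads Tpm1 led with 47.7% of the family, followed by Tpm4 with 25.8%, Tpm2 with 22.8% and Tpm3 with 3.79%. With total reads Tpm4 led with 46.2%, ahead of Tpm1 with 31.0%, because only 36.4% of Tpm4 exon reads and 30.9% of Tpm3 exon reads were unique while nearly all of those of Tpm1 and Tpm2 were. Which tropomyosin is the most abundant is thus unsettled in these data, but Tpm3 was the least abundant under both counts.

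Next came the proteins that bundle, link or bind filaments. Flna, the filamin that links filaments into networks, averaged 591 RPKM and Flnc, the muscle filamin, 144 RPKM. The alpha-actinins, which tie antiparallel filaments together, were split 57.9% to Actn1 and 42.1% to Actn4. Calponins bind actin and restrain myosin: Cnn2 held 64.2% of their level, Cnn3 22.8% and Cnn1, the smooth muscle form, 13.0%. Transgelin (Tagln, also called SM22), a smooth muscle and myofibroblast protein, came next after Acta2 by unique reads, at 725 RPKM. Only 62.6% of its exon reads were unique, and by total reads Actg1 (1779 RPKM) stood above Tagln (996 RPKM). By unique reads Tagln held 76.6% of the level of the transgelin pair, with Tagln2 at 23.4%. Cald1, caldesmon, was among the steadiest genes, at 279 RPKM ± 11.5 in males and 281 RPKM ± 8.62 in females (SD, n = 5). Smooth muscle proteins of narrower use were low: Lmod1, leiomodin 1, which nucleates filaments, averaged 20.4 RPKM and Smtn, smoothelin, 24.8 RPKM.

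**Figure D2:**
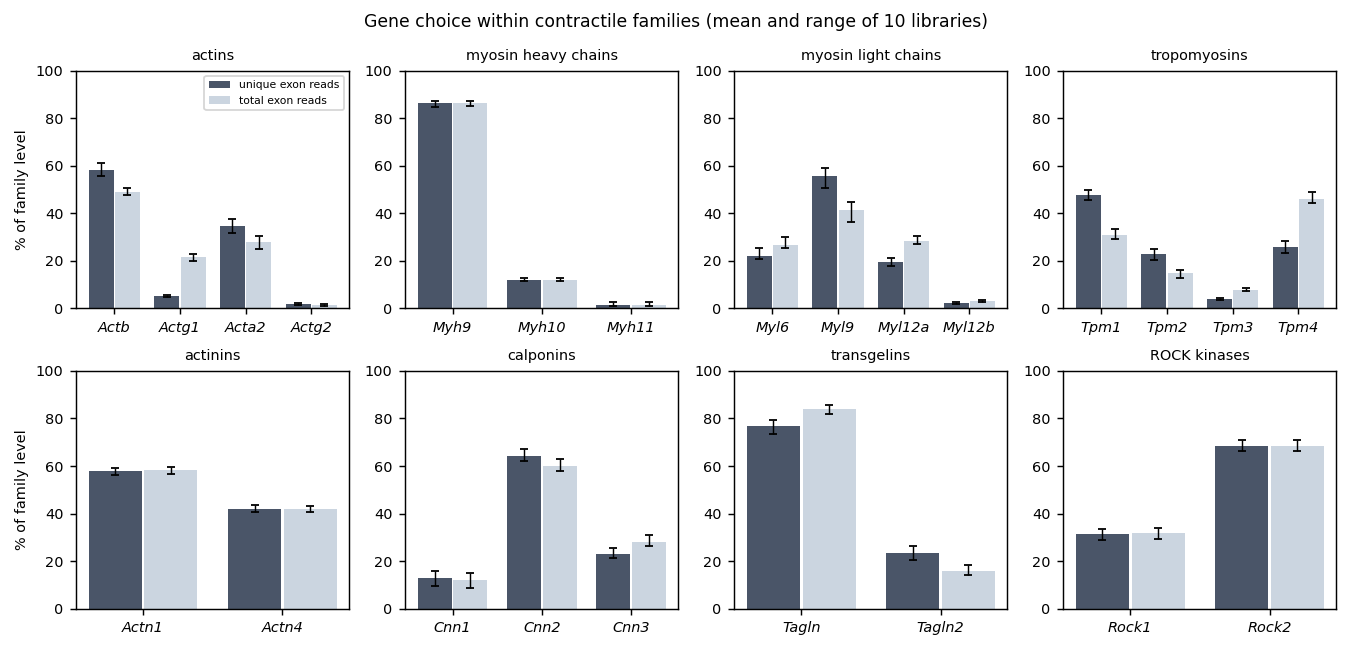
Share of each gene in the summed level per kilobase of its family, in percent, as the mean of 10 libraries with bars from the lowest to the highest library, from unique (dark) and total (light) exon reads. Actb, Myh9, Actn1, Cnn2, Tagln and Rock2 lead their families under both counts, while Tpm1 and Tpm4 change places.

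Of the 4 focal adhesion genes, 3 lay close together. Tln1, talin, which couples integrins to actin, averaged 158 RPKM, Vcl (vinculin, its partner) 122 RPKM and Zyx (zyxin, a sensor of strained filaments) 116 RPKM. Pxn, the scaffold paxillin, was lower at 11.6 RPKM. Upstream, Rhoa averaged 126 RPKM and was the steadiest gene of the set, with a coefficient of variation of 3.24%. Rock2 was the higher of these kinases, which act below RhoA, at 48.2 RPKM and Rock1 had 22.1 RPKM. Srf, at chr17:46546839-46556162, averaged 11.2 RPKM. Its values were 10.9, 11.0, 11.7, 11.1 and 12.2 RPKM in males and 8.85, 9.50, 10.8, 12.2 and 13.5 RPKM in females. The female libraries therefore ran both below and above the narrow male range, and only 37.0% of Srf exon reads were unique. Myocd was the lowest gene of the set at 0.587 RPKM, with 67 to 147 unique exon reads per library. It read 0.428, 0.690, 0.878, 0.595 and 0.689 RPKM in males and 0.421, 0.363, 0.689, 0.589 and 0.529 RPKM in females, again with overlap.

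The genes differed in how much they varied between libraries. Coefficients of variation above 15% were found for 6 genes, namely Myh11 (37.7%), Myocd (26.8%), Mylk (20.7%), Lmod1 (20.5%), Cnn1 (19.1%) and Actg2 (17.9%). Tagln2 followed at 13.6%, then Srf, Acta2 and Tpm2 at 12.0%. Such values were not rare outside the set. Of all tested genes, 71.9% had a lower coefficient than Actg2 and 62.1% a lower one than Tagln2. The median over the 37 genes was 8.14%, beside 7.61% over the 8685 tested genes with at least 10 CPM. Low reads add counting error to Myocd, but Actg2 had at least 4471 unique reads in every library. Libraries stood apart as well. Female 5 held the highest value for 18 of the 37 genes, among them Actb, Flna, Tln1, Tpm1, Cnn2 and Srf. Male 1 held the lowest for 10 genes, female 2 for another 10 and female 1 for 8. Male 4 was highest for Acta2, Actg2, Cnn1 and Myl12a, and male 3 for Myh11, Myocd, Rock1, Rock2 and Myl12b. How often each library was highest or lowest over all tested genes was not counted. These counts therefore describe the libraries and are no trait of the set. The labels give no batch or date against which these differences could be set.

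Several smooth muscle genes moved with Acta2 from library to library. Every tested gene was fitted with edgeR on the log2 CPM of Acta2 over the 10 libraries. Of the 36 other genes of the set, 6 had a positive slope at an adjusted p under 0.05 over all 13614 genes fitted, namely Actg2, Mylk, Cnn1, Tagln, Myl9 and Tpm2. None had a negative slope that passed, or one with an unadjusted p under 0.05, while 16 had a positive slope with an unadjusted p under 0.05. The share of all genes at this unadjusted cut was not counted, so the 16 and the like counts below are a description. Among all genes 0.206% passed with a positive and 0.389% with a negative slope. The median Pearson r with Acta2 was 0.55 over the 36 genes and 0.01 over all genes, and 34 of the 36 were positive against 50.7% of all genes. In 9 of the 36 r was at least 0.8, which held for 1.26% of all genes. The 9 are the 6 called genes with Actn1, Myl12a and Tpm1.

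Actg2 followed Acta2 most closely. Its gene lies at chr6:83512905-83536265. Its Pearson r was 0.96 (permutation p = 2.0e-05) and its Spearman rank correlation 0.96 (permutation p = 0.00012), and r stayed at 0.96 without female 2 and male 1, the libraries farthest from the median of Acta2. The edgeR slope was 1.46 ± 0.15 (SE; adjusted p = 0.00029), so Actg2 changed by more, on the log2 scale, than Acta2 did. Mylk, at chr16:34745210-35002420, had r = 0.95 (permutation p = 0.00011) and Spearman correlation = 0.92 (permutation p = 0.00063), with r = 0.87 without those libraries and an edgeR slope of 1.71 ± 0.20 (adjusted p = 0.0012). Tagln, at chr9:45929619-45936058, had r = 0.89 (permutation p = 0.00069) and Spearman correlation = 0.88 (permutation p = 0.0015). Its slope of 0.79 ± 0.15 (edgeR adjusted p = 0.034) was shallower than those of Actg2 and Mylk by more than their standard errors, though the difference of slopes was not tested.

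For the other called genes r fell further without the 2 farthest libraries than for Tagln, where it was 0.82. Cnn1, at chr9:22099216-22109630, stood at 59.9, 79.8, 86.3, 95.6 and 78.9 RPKM in males and 58.0, 50.7, 85.9, 76.7 and 72.6 RPKM in females, so that the same 3 libraries were low as for Acta2. It had r = 0.87 (permutation p = 0.0013), Spearman correlation = 0.67 (permutation p = 0.040) and r = 0.70 without the farthest libraries. Myl9 had r = 0.84 (permutation p = 0.0030) and r = 0.65 without them. Tpm2 had r = 0.83 (permutation p = 0.0033) and r = 0.67 without them. The edgeR slopes were 1.45 ± 0.25 for Cnn1 (adjusted p = 0.031), 0.82 ± 0.17 for Myl9 (adjusted p = 0.041) and 0.85 ± 0.18 for Tpm2 (adjusted p = 0.042). Without female 2 and male 1 none of the 36 genes passed in edgeR over all genes, 8 had an unadjusted p under 0.05, and r was positive for each of the 6. Leaving out 1 library left between 1 and 8 calls: 1 without female 2, 2 without male 1, female 1 or female 3, 3 without male 2, and 8 without male 5, where Tpm1 and Actn1 joined. With sex as a term the count stayed at 6, and with unique gene reads, which add introns to exons, it was 2.

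**Figure D3:**
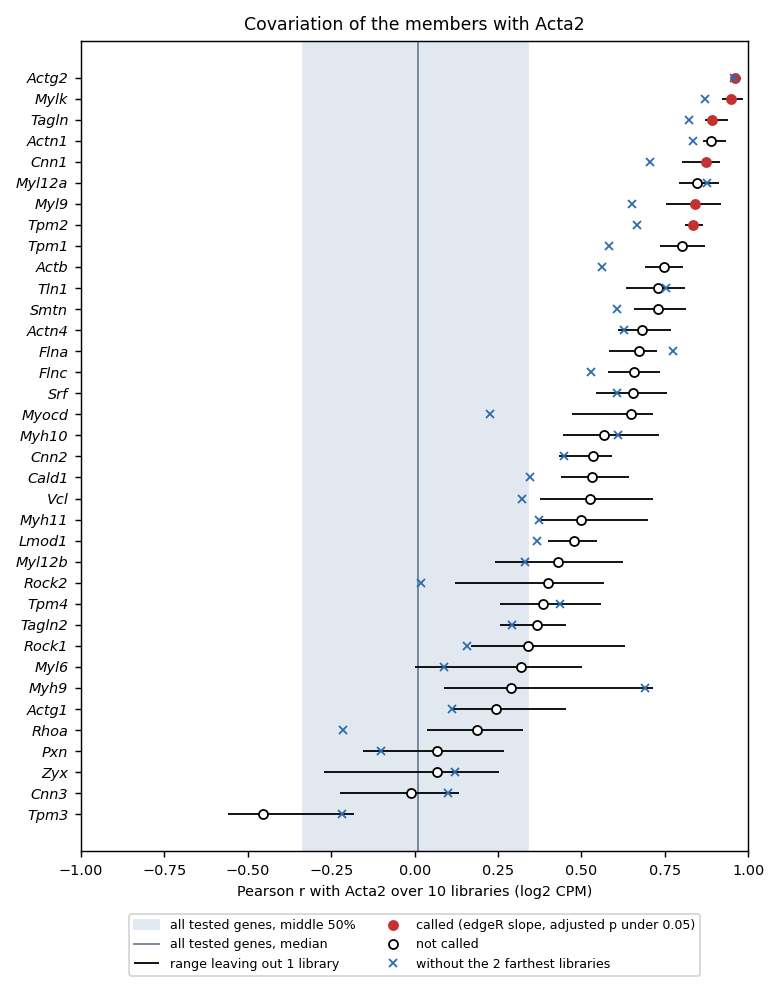
Pearson r of each gene with Acta2 over 10 libraries, on log2 CPM. Red points passed the edgeR slope test (adjusted p under 0.05 over all genes), open points did not, black lines span the values leaving out 1 library, blue crosses leave out female 2 and male 1, and the band holds the middle 50% of all tested genes. The upper rows lie to the right of the band, and Tpm3 lies left of 0.

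Other genes of the set had r with Acta2 near 0. Cnn3 had r = -0.01, Zyx 0.07, Pxn 0.07 and Rhoa 0.19. Tpm3 had r = -0.45 (permutation p = 0.19; edgeR adjusted p = 0.58). Srf (r = 0.66) and Myocd (r = 0.65) stood in the middle, and r for Myocd fell to 0.23 without the farthest libraries. Outside the set, genes with at least 10 CPM and the highest r were Hip1 (0.93), Zfp334 (0.91), Sh3kbp1 (0.91), Naf1 (0.90) and Srprb (0.90). Hip1 encodes a clathrin adaptor that also binds actin, and Sh3kbp1 an endocytic adaptor. The lowest r was that of Ctsk, the collagen-cleaving protease cathepsin K, at -0.96, with an edgeR slope of -1.82 ± 0.18 (adjusted p = 0.00029). Zbtb34 (-0.95) and Ilvbl (-0.93) followed. These correlations were sorted out of all genes and are a description.

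Measures of the libraries were set beside Acta2. The summed CPM of the smooth muscle markers that are not in the set had r = 0.77 with Acta2 (permutation p = 0.0099, and 0.109 adjusted over 11 library measures), Spearman correlation = 0.75 and r = 0.67 without the farthest libraries. This list of 5 genes (Des, Synpo2, Kcnmb1, Casq2 and Npnt) was mostly Des, which averaged 120 CPM and is also in the skeletal muscle list, and it summed to 146 to 183 CPM in male and 131 to 226 CPM in female libraries. The skeletal muscle markers, led by the same gene, had r = 0.60 (permutation p = 0.069) and the endothelial markers, led by Kdr, r = 0.57 (permutation p = 0.088). The fibroblast markers had r = -0.61 (permutation p = 0.064) and -0.11 without the farthest libraries, and summed to 29018 to 36777 CPM in males and 30189 to 37095 CPM in females. Unique exon reads had r = -0.03 with Acta2 and the percentage of reads in introns r = -0.40. Whether a change in the mix of cells takes part in the covariation was not tested.

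Pairs within the set did not all follow Acta2. Over 666 pairs the median r was 0.48, with 83 pairs at 0.8 or above and 123 below 0, values given as a description since the libraries are shared. Cnn2 and Lmod1 had r = 0.97, Tagln2 and Cnn2 0.96, Tagln2 and Lmod1 0.94, and Flna and Tln1 0.97. Cnn2 and Lmod1 put the 10 libraries in the same order, and without female 5, where Lmod1, Cnn2 and Tagln2 were highest, r was still 0.94. Myocd and Rock2 had r = 0.92. Tpm3 ran against Rock2 (-0.85) and Myocd (-0.85), and Cnn3 against Myh11 (-0.77). Some pairs of smooth muscle genes had lower r. Acta2 had r = 0.50 with Myh11 (permutation p = 0.14), or 0.70 without female 5. With Lmod1 it had r = 0.48 (permutation p = 0.16). Myh11 with Lmod1 had r = -0.40 (permutation p = 0.26), or -0.17 without female 5. Without female 5 and male 5 that r was 0.42, so its sign rested on these libraries.

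**Figure D4:**
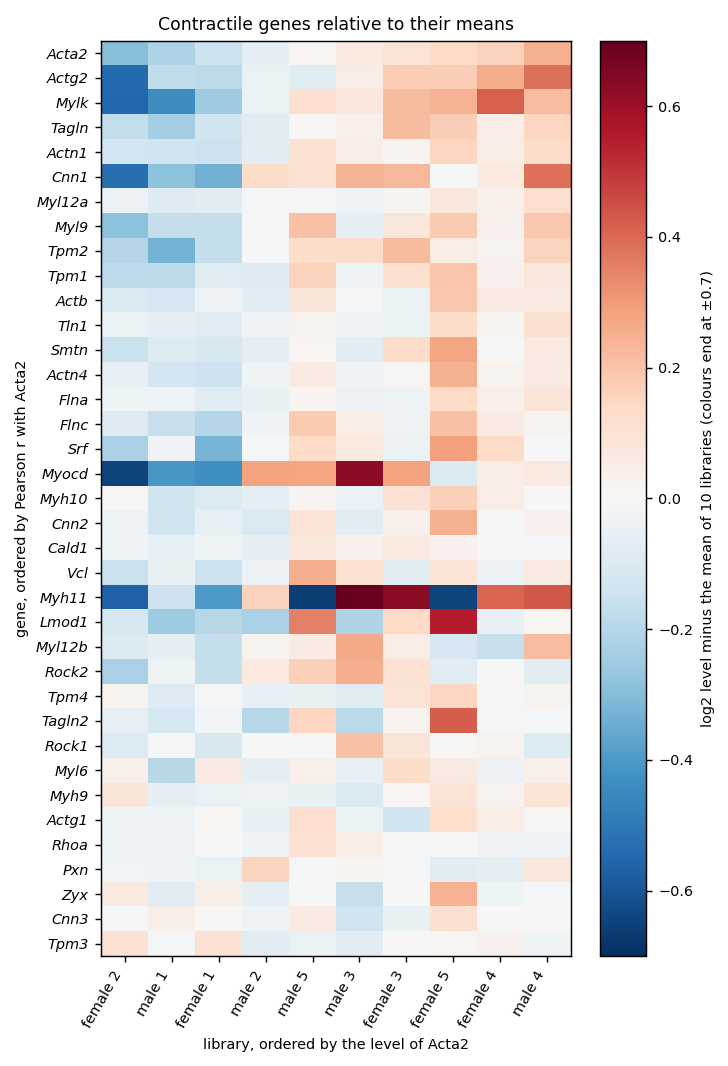
Log2 level of each gene minus its mean over the 10 libraries, with libraries ordered by Acta2 from low (left) to high and genes by r with Acta2. Colours end at ±0.7. The 3 left columns, female 2, male 1 and female 1, are blue in the upper rows, Myh11 and Lmod1 show opposite colours in female 5 and male 5, and the lowest rows are pale.

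By sex, the only comparison the labels give, no contractile gene passed. On exon reads the edgeR quasi-likelihood test gave an adjusted p under 0.05 to 0 of the 37 genes, and to 0.118% of all 13615 tested genes. DESeq2 and limma-voom also called 0 of the 37. Log2 fold changes, female minus male, ran from -0.34 in Myocd to 0.15 in Tagln2, with a median of 0.01 beside 0.00 for all genes, and 20 of the 37 were above 0. An unadjusted p under 0.05 was reached by 4 genes (10.8%, beside 7.43% of all tested genes), and the smallest adjusted p was 0.53. Small changes could be missed at this depth and number of libraries: in counts simulated for this comparison on 13484 genes the test recovered 80% of genes changed 1.5-fold and 34% at the smaller fold tried. In the authors' deposited table, whose test covers the same 10 libraries, 0 of the 37 had a false discovery rate under 0.05, against 0.156% of all genes.

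Acta2 itself differed little, with a log2 fold change of -0.02 ± 0.10 (SE; edgeR adjusted p = 0.98). The largest difference among the 4 genes with a low unadjusted p was in Myl12b, which was 13.1, 13.97, 16.5, 15.9 and 14.3 RPKM in males and 12.2, 12.8, 14.3, 12.3 and 12.7 RPKM in females. The male values lay higher on the whole and the groups overlapped, at a log2 fold change of -0.20 ± 0.08 (edgeR adjusted p = 0.53). Zyx had a log2 fold change of 0.13 ± 0.05 (edgeR adjusted p = 0.60) and Tpm4 one of 0.10 ± 0.04 (edgeR adjusted p = 0.64), which was 0.04 with total exon reads. In 1.35% of all tested genes the sexes did not overlap, and of the 37 genes this held for 1, Tpm3. Tpm3 was 28.9, 27.6, 27.5, 28.5 and 28.1 RPKM in males and 31.2, 31.2, 29.0, 29.7 and 29.3 RPKM in females. Every female library lay above every male one, though female 3 only just above male 1. The log2 fold change of Tpm3 was 0.10 ± 0.04 (edgeR adjusted p = 0.61). Only 30.9% of its exon reads were unique, and with total exon reads its log2 fold change was 0.07 (edgeR adjusted p = 0.75). Myocd, at -0.34 ± 0.20 (edgeR adjusted p = 0.77), and Cnn1, at -0.22 ± 0.16 (edgeR adjusted p = 0.82), had wider errors.

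**Figure D5:**
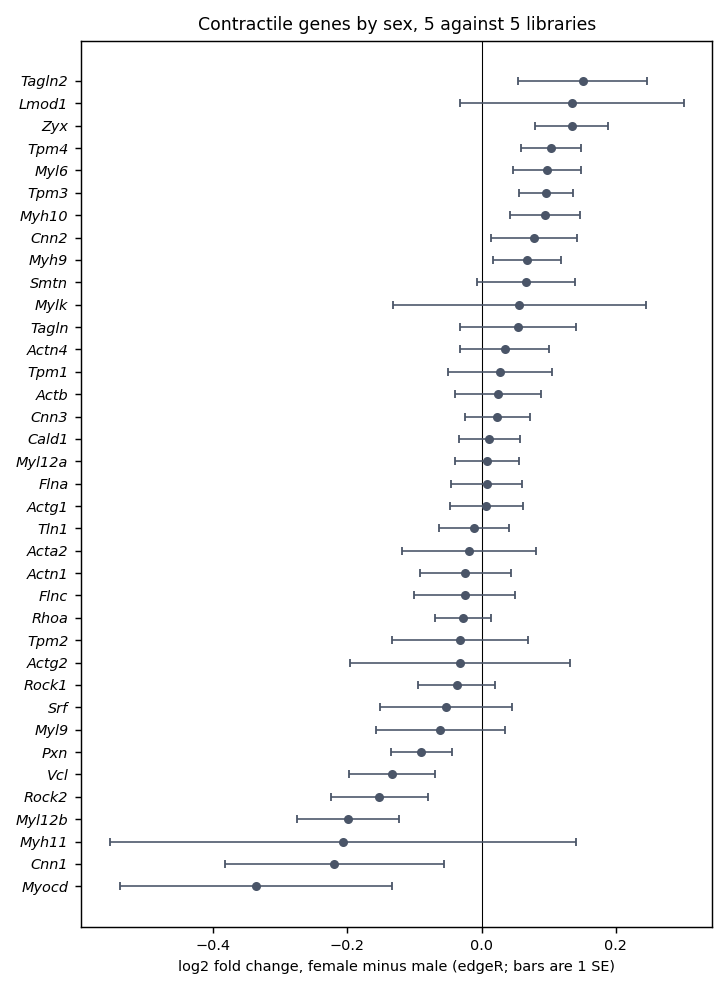
Log2 fold change of each gene, female minus male, from the edgeR fit on unique exon reads with 5 libraries a sex. Bars are 1 standard error. Values run from -0.34 (Myocd) to 0.15 (Tagln2), and the widest bar is that of Myh11.

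The choice of gene within families did not pass by sex either. Of 24 family shares, 0 had an adjusted p under 0.05 in the two-sided exact permutation test of 5 against 5 libraries, which can reach 0.0079, and 2 had an unadjusted p under 0.05. Rock1 made up 31.9%, 30.4%, 30.7%, 31.2% and 29.0% of the summed level of Rock1 and Rock2 in males and 32.3%, 33.5%, 31.3%, 31.9% and 32.9% in females. The female mean was 1.73 points higher (exact permutation p = 0.024, adjusted p = 0.38), with overlap. The Cnn2 share of the calponins was 63.1% ± 0.98 in males and 65.3% ± 1.48 in females (SD, n = 5; exact permutation p = 0.032, adjusted p = 0.38). The Acta2 share of the actins was 35.0% ± 1.79 in males and 34.4% ± 2.13 in females (SD, n = 5; exact permutation p = 0.62).

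Intron reads come mostly from RNA that is not yet spliced, and these libraries of ribosome-depleted total RNA held them in numbers. On unique intron reads 34 of the 37 genes could be tested. The other 3, Myl12a, Myl12b and Srf, had no unique intron read. Gene models listed as Gm26561 (Myl12a and Myl12b) and Gm26904 (Srf) overlap them, and their total intron reads over the 10 libraries were 4872, 4577 and 1435. By sex 0 of the 34 passed in edgeR and 0 in DESeq2, against 0.0983% of 14249 genes in edgeR. An unadjusted edgeR p under 0.05 was reached by 2 of the 34 (5.88%), a share near the 4.37% of all genes tested. The 2 were Tagln2, with a log2 fold change of 0.33 ± 0.11 (edgeR adjusted p = 0.78), and Smtn, with 0.22 ± 0.10 (edgeR adjusted p = 1.0). For both genes the exon value pointed the same way, at 0.15 for Tagln2 and 0.07 for Smtn.

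In 32 genes with at least 50 unique intron reads in every library, intron and exon levels could be compared across libraries. The correlation was positive in all 32 of them, with a median r of 0.57. Over 7884 genes with as many intron reads the median was 0.31, and 77.0% were positive. Without the 2 libraries farthest from a gene's median exon level the medians were 0.38 and 0.22, and 4 of the 32 (Cnn3, Myl6, Tln1 and Rhoa) were below 0. The Spearman correlation was below 0 for Actg1 and Rhoa. Both values of a gene come from the same library and share its depth. Rock2 had the highest, with r = 0.88. Acta2 had r = 0.49: its intron level was 186, 173, 185, 223 and 281 CPM in males and 206, 188, 208, 217 and 282 CPM in females, so male 5 and female 5 were high in introns while male 4 was highest in exons. Actg2 introns again followed those of Acta2, with r = 0.94 (0.77 without female 5 and male 5). The median r with the introns of Acta2 was 0.63 over 31 genes and 0.01 over 14248 genes. Without female 5 and male 5, the libraries farthest from the median of Acta2 introns, these medians were 0.26 and -0.01. Rock2 introns had r = -0.15 with those of Acta2.

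Of 73 further genes of MRTF and SRF signalling, small GTPases, actin turnover and focal adhesion, 70 could be tested by sex, and Lmod2, Lmod3 and Mylk3 had too few reads. None of the 70 passed in edgeR, DESeq2 or limma-voom in either direction, and 5 (7.14%) had an unadjusted p under 0.05, a share close to the 7.43% of all tested genes. The median log2 fold change was 0.01. Higher in females before adjustment were Tmsb10, a thymosin that holds actin monomers, at 0.28 ± 0.08 (edgeR adjusted p = 0.38), Evl, an Ena/VASP protein of filament tips, at 0.23 ± 0.07 (edgeR adjusted p = 0.41), Nexn, the filament-binding nexilin, at 0.22 and Pfn1, profilin 1, at 0.11. Diaph2, a formin, was at -0.21 ± 0.07 (edgeR adjusted p = 0.43). Tmsb10 passed when female 4 was left out. The SRF coactivators MRTF-A (listed as Mkl1) and MRTF-B (listed as Mkl2) differed by -0.02 ± 0.08 and -0.06 ± 0.07. No gene of the 70 passed the edgeR slope on Acta2. An unadjusted p under 0.05 in that fit was reached by 10, with the share of all genes not counted. Synpo2, an actin-binding protein of smooth muscle, had r = 0.89 and Palld, the stress fibre protein palladin, r = 0.82. Mkl1 had r = 0.71 with Acta2.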

How the data were processed

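Total RNA of 10 libraries was depleted of ribosomal RNA and made into directional libraries, per the labels' protocols. The authors deposited whole-number read counts per gene, unique and total, for exons and introns, per the file headers, on mm10, per the submitters' processing notes. Aligner and counting rules: not given in the sources used here. A further 80 columns of per-library values were not used. The deposited table also gives, per the file headers, the authors' own test of each gene: its p-value, its signed fold (a score) and its false discovery rate.

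The genes, lists and tests were chosen with earlier results of these data known. All 37 genes were described. From the pathway list, genes called, the 3 with the smallest p per direction and the MRTF genes were named, and 1 further gene of that rule is not reported here. Outside the lists, the 5 highest and 3 lowest r with Acta2 among genes with at least 10 CPM were named. Counts were filtered with filterByExpr (minimum 10) and tested with edgeR 4.0.16 in R 4.3.3: TMM, robust quasi-likelihood, sex as the only term, two-sided, Benjamini-Hochberg over all tested genes. Correlations used log2 CPM (prior count 2) and 100000 permutations, where 1.0e-05 is the smallest p. The design planned adjustment of their p over the 36 genes. In its place the edgeR slope on Acta2, adjusted over all genes, was added after the data were seen. It treats the Acta2 level as free of error. No list was tested as a set. Alternatives were size factors, upper quartile factors, other filters, DESeq2 1.42.0, limma-voom (limma 3.58.1), other read classes, the replicate number as a block, and leaving out each library. In data simulated for the female minus male test on 13484 genes, 11.0% of calls were unchanged genes. Libraries of a sex differed beyond sampling noise (chi-square per degree of freedom 7.02 to 33.5), so none was taken for a copy.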

Additional observations from a re-analysis of the deposited data

Results flagged for a closer look

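In 4 of 74 groups of 5 libraries, 1 library lay far above the rest of its sex, by Dixon's gap test at its 95% critical value of 0.71. Chance flags about 1 in 20 groups, or 3.7 here. Tagln2 was at 294.27 RPKM in female 5, where the other females lay between 210.53 and 222.69. Cnn2 was at 435.92 RPKM in female 5, with the other females between 351.63 and 374.73. Both are in the library that was highest for 18 of the 37 genes, a count without its share over all genes. Myl12b was at 14.261 RPKM in female 3, with the others between 12.225 and 12.801. Rock1 was at 25.391 RPKM in male 3, with the others between 20.649 and 21.993.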

How the results depend on the processing

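No contractile gene was called by sex under any alternative on exon reads (20 alternatives) or intron reads (14), and no family share under 13, so depth and 5 libraries a sex limit what a lack of calls can say. The count over all genes, 16, became 46 with no filter, 87 with DESeq2 and 79 with the replicate block, and 10 to 23 leaving out 1 library; the cause was not tested. The 6 slopes on Acta2 became 2 with unique gene reads, 1 (Actg2) with the replicate block, 0 without the 2 farthest libraries and 1 to 8 leaving out 1 library. The last settings use fewer libraries; the cause of the others was not tested. Of 612 single slopes, 572 kept their side of the threshold, 38 lost it and 2 gained it. Most of the 612 belong to genes never called, and only the 6 called genes could lose a call. Over 17 alternatives Actg2 passed in 16, Mylk in 14, Cnn1 in 10, Tagln in 9, Tpm2 in 8 and Myl9 in 7. The median r with Acta2 lay between 0.49 and 0.65. Signs changed in 47 of 740 exon fold changes, 32 of 476 intron fold changes and 23 of 312 share differences, all of them uncalled. Same-numbered male and female libraries correlated at 0.37, 0.25, 0.32, 0.03 and 0.44, and not every library was closest to its own number, so the numbers were not taken as pairs. Paired sign-flip tests of 5 pairs cannot go below 0.0625. Since reads carry no molecular identifiers, counts are not independent molecules.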
